A study of Homo sapiens with 27 samples.

Results

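The response to knockdown of CPSF1 was compared between LNCaP and LNCaP95, a prostate cancer cell line and its derivative that grows without androgen. All 18 libraries of these lines were used, of 27 libraries from 3 lines in the series. In each line the log2 change of knockdown over control was fitted per gene, with both shRNAs together. Only the line difference was tested, which is the log2 change in LNCaP95 minus the log2 change in LNCaP. Log2 changes within a line are given as a description, each with its standard error (SE).

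CPSF1 encodes the largest protein of the CPSF complex (cleavage and polyadenylation specificity factor), which reads the AAUAAA signal and cuts the nascent transcript before a poly(A) tail is added. When cleavage at the usual site fails, RNA polymerase II reads on into downstream sequence, and cleavage at signals inside introns gives shortened transcripts. LNCaP cells respond to androgen, and LNCaP95 cells descend from them after long culture without androgen.

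For each line there were 3 libraries with the control shRNA (CTRL sh) and 3 with each of the CPSF1 shRNAs (sh1, sh2), from cells transduced with lentivirus and selected with puromycin. LNCaP cells were grown in RPMI 1640 and LNCaP95 cells in RPMI 1640 free of phenol red, both with 10% FBS, for 72 h after seeding at 500000 cells per well. The puromycin dose is 2 µg/mL for LNCaP in the labels, which give a second dose of 1 µg/mL with no line named. Medium and cell line therefore cannot be told apart, and a single parent and a single derivative were compared. Every cell in the comparison carried a shRNA vector and had survived selection. The study describes the 3 libraries of a group as biological replicates.

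Poly(A)-ClickSeq (PAC-seq) counts reads that end at a poly(A) tail, and these were assigned to the 3′ UTR, the introns, the coding exons (CDS) or the 10 kb downstream of a gene. LNCaP libraries held 3856706 to 11239076 reads over the 4 regions and LNCaP95 libraries 5431900 to 9100287. The 10 kb regions were the shallowest, with 285311 to 683045 reads in LNCaP and 266208 to 507194 in LNCaP95. CPSF1 itself had 183, 145 and 138 CPM (read counts of a table after edgeR's scaling for library size and TMM factor) in the 3′ UTR table in LNCaP controls and a lowest, median and highest value of 53.5, 65.36 and 97.4 after knockdown. LNCaP95 controls had 98.6, 66.7 and 111 CPM and knockdown libraries 34.4, 42.61 and 60.3, so the knockdown libraries lay below all controls in both lines. The log2 change of CPSF1 was -1.20 (SE 0.182) in LNCaP and -1.07 (SE 0.184) in LNCaP95, a line difference of 0.14 (SE 0.27, edgeR adjusted p = 0.81). All 8 luminal prostate markers examined were above 10 CPM in both lines, among them KLK3, KRT8 and KRT18. Markers of basal cells and leukocytes were at or near 0, with KRT5 and PTPRC at 0 in both lines, and of the neuroendocrine markers CHGB was at 0 in both and CHGA and INSM1 were below 1 CPM. The summed luminal markers ranged from 6230 to 6510 CPM in LNCaP controls and from 4000 to 4880 after knockdown, and from 8220 to 9240 and from 5150 to 6440 in LNCaP95. Whether this bore on the differences below was not tested, and in bulk RNA fewer cells of a type and less RNA per cell cannot be told apart.

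Genes called as answering knockdown differently in the 2 lines were most numerous in 3′ UTRs, the table with the most reads. There the line difference passed the threshold (edgeR adjusted p under 0.05) in 1010 of 10646 genes tested, or 9.49%, and was positive in 514 and negative in 496. In introns 836 of 11684 genes passed, or 7.16%, with 482 positive and 354 negative. In the 10 kb regions 343 of 12921 genes passed, or 2.65%, with 198 positive and 145 negative. The power to call a difference was unequal. On simulated counts a line difference of 2 on the log2 scale was called in 95.9% of changed genes in 3′ UTRs. In introns 76.8% were called and in the 10 kb regions 16%. The shares of calls therefore cannot rank the regions by how often the lines differ. Scaling was done within each table, so a value in it is relative to the other genes of that table. The balance of signs depended on this scaling. Positive differences made up 57.7% of the calls in introns and 75.7% when each library was scaled by its reads over all 4 tables, and 57.7% and 85.2% in the 10 kb regions. An offset for GC content gave 40.1% in the 10 kb regions.

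Among the differing genes, log2 changes of opposite sign in the 2 lines were the most common patterns. Choosing genes by the line difference itself favours opposite signs, and over all genes tested the lines had the same sign in 65.2% in 3′ UTRs, 63.7% in introns and 69.5% in 10 kb regions. A sign is also uncertain where a change lies within its SE of 0, as for DDIT3 in LNCaP (0.087, SE 0.155). Of the 1010 genes in the 3′ UTR table, 361 (35.7%) had a log2 change above 0 in LNCaP95 and below 0 in LNCaP, and 338 (33.5%) the reverse. Another 127 (12.6%) were below 0 in both lines with the larger change in LNCaP95, and 94 (9.31%) were above 0 in both with the larger change in LNCaP95. In introns the opposite patterns made up 346 (41.4%) and 254 (30.4%) of the differing genes. In the 10 kb regions they made up 113 (32.9%) and 88 (25.7%), while 82 (23.9%) were above 0 in both lines with the larger change in LNCaP95. Across all genes tested the log2 changes of the lines, which share no library, had a Pearson r of 0.524 over 10646 genes in 3′ UTRs, 0.506 over 11684 in introns and 0.494 over 12921 in 10 kb regions. Genes are not independent replicates, so these are descriptions. The median absolute log2 change was 0.278 in LNCaP and 0.345 in LNCaP95 in 3′ UTRs, 0.33 and 0.399 in introns, and 0.752 and 0.965 in the 10 kb regions. The median SE of these changes was 0.198 and 0.193, 0.27 and 0.261, and 0.677 and 0.64, in the same order. An absolute change grows with its SE, so these medians cannot rank the regions by size of response.

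**Figure D1:**
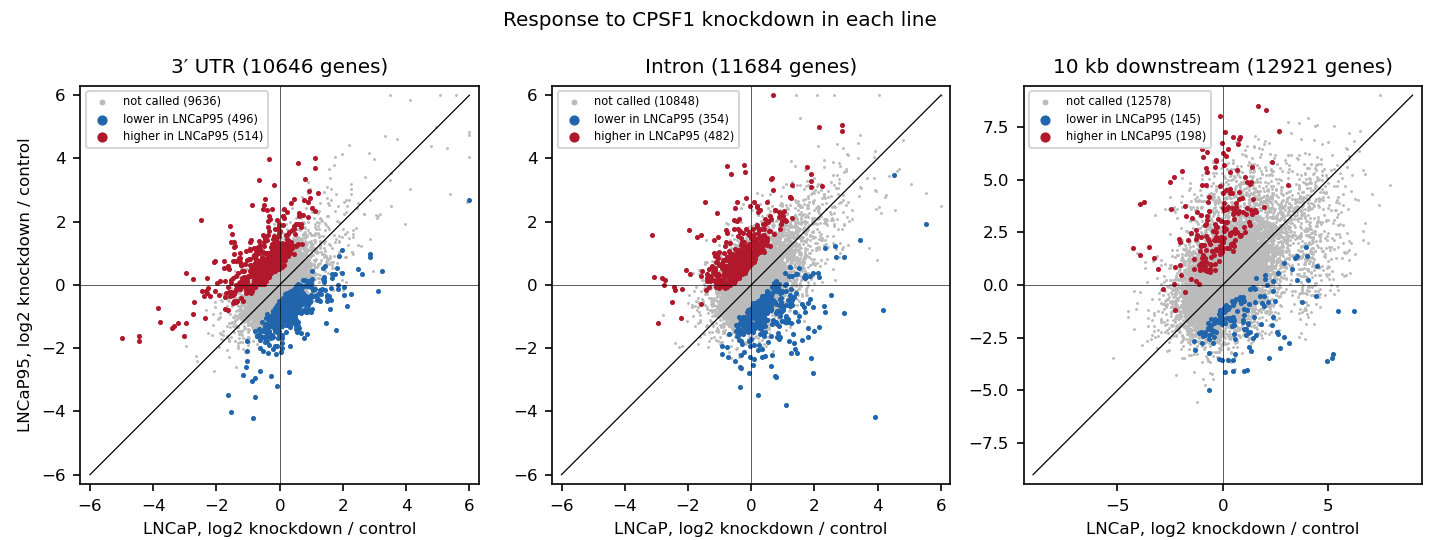
Each point is a gene, with its log2 change on CPSF1 knockdown in LNCaP on the x axis and in LNCaP95 on the y axis, for the 3′ UTR, intron and 10 kb tables. Coloured points have a line difference with an edgeR adjusted p under 0.05, and values beyond an axis are drawn at its edge. The coloured points lie on both sides of the diagonal, 514 above and 496 below it in the 3′ UTR panel, 482 and 354 in the intron panel and 198 and 145 in the 10 kb panel.

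In 3′ UTRs the UGT2B family differed between the lines at every member tested. These genes encode UDP-glucuronosyltransferases, and UGT2B15 and UGT2B17 inactivate androgens by glucuronidation. All 6 of the 6 tested had a positive line difference in the 3′ UTR table, against 4.83% of all genes with a positive difference. UGT2B15 had 511, 531 and 503 CPM in LNCaP controls and 94.6, 122 and 150 (lowest, median and highest of 6) after knockdown. In LNCaP95 it had 139, 169 and 145 CPM in controls and 222, 254.5 and 268 after knockdown. Knockdown libraries thus lay below all controls in LNCaP and above all controls in LNCaP95, and the line difference was 2.81 (edgeR adjusted p = 1.64e-09). UGT2B17 had 166, 245 and 206 CPM in LNCaP controls and 15.4, 41.09 and 73.9 after knockdown, against 85.5, 114 and 76 and then 53.8, 87.82 and 114 in LNCaP95. Its groups separated in LNCaP and overlapped in LNCaP95, with a line difference of 2.17 (SE 0.418, edgeR adjusted p = 0.0013). UGT2B10 (1.15) and UGT2B11 (1.06) also passed in every one of the 18 fits made without 1 library each. UGT2B7 (1.68, edgeR adjusted p = 0.016) lost its call in 2 of the 18 fits and UGT2B28 (0.83, edgeR adjusted p = 0.0164) in 3 of them, each time without a control library, and UGT2B28 also with CPSF1 sh1 alone. In introns 2 of the 6 members tested passed, UGT2B15 and UGT2B17, both positive beside 4.13% of all genes. The ratio of intron to 3′ UTR reads differed by -3.36 for UGT2B7 (edgeR adjusted p = 0.0161), a call that was lost with either shRNA alone. Members of this family are close paralogs, so counts of single members are uncertain where reads could match more than one.

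The other genes with the most positive line differences in 3′ UTRs, among those that averaged 10 CPM or more in each line and had the same sign with each shRNA, lay below all their controls after knockdown in LNCaP. FAM65B, named RIPOR2 in a newer annotation of the same build, had 33.9, 27.8 and 29.6 CPM in LNCaP controls and 2.26, 3.17 and 6.69 after knockdown. In LNCaP95 it had 67.5, 72.7 and 85.1 CPM and then 85, 95.99 and 110, and its line difference was 3.34 (SE 0.268, edgeR adjusted p = 5.65e-09). NDUFA4L2, a mitochondrial protein induced by hypoxia, was below all controls after knockdown in both lines, but by different amounts. Its log2 change was -4.46 (SE 0.326) in LNCaP and -1.78 (SE 0.285) in LNCaP95, a line difference of 2.68 (edgeR adjusted p = 0.000375), which was 3.68 with CPSF1 sh1 alone and 1.77 with CPSF1 sh2 alone. SCD5, a stearoyl-CoA desaturase, had 25.3, 26 and 22.4 CPM in LNCaP controls and 5.28, 9.103 and 12 after knockdown, against 13.1, 10.6 and 10.5 and then 21.4, 26.41 and 30.5 in LNCaP95. Its groups separated in both lines in opposite directions, with a line difference of 2.65 (SE 0.311, edgeR adjusted p = 2.47e-06). ELOVL6, which elongates fatty acids, showed the same opposite separation, with a line difference of 1.77 (edgeR adjusted p = 2.47e-06).

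Of the 4 genes with the most negative line differences under the same rule, 3 were high in LNCaP95 controls and close to the LNCaP level after knockdown. NUPR1, a stress-induced chromatin protein, had 1102, 942 and 901 CPM in LNCaP controls and 796, 1087 and 1865 after knockdown. In LNCaP95 it had 10400, 7431 and 8058 CPM in controls and 1017, 1105 and 2171 after knockdown. The groups overlapped in LNCaP and were far apart in LNCaP95, with a line difference of -3.05 (SE 0.33, edgeR adjusted p = 8.42e-07). PIM1, a serine/threonine kinase of survival signalling, had 21.7, 24.9 and 20.8 CPM and then 9.85, 12.4 and 14.7 in LNCaP, against 380, 244 and 322 and then 12.6, 16.21 and 21.9 in LNCaP95. Knockdown libraries were below controls in both lines, and the line difference was -3.36 (SE 0.252, edgeR adjusted p = 1.86e-09). C1orf63, named RSRP1 in the newer annotation, had a mean of 13.84 CPM in LNCaP controls and a median of 13.45 after knockdown, against 105.9 and 10.57 in LNCaP95, with a line difference of -3.12 (edgeR adjusted p = 5.66e-07). PRAMEF12, of a family of near-identical copies whose counts are uncertain, had 0 reads in all 3 LNCaP controls and 32 to 91 reads in the knockdown libraries, which is at least 19.5-fold higher against a floor of 3 reads per library. In LNCaP95 it had 3.37, 2.12 and 0.826 CPM in controls and 3.5, 15.99 and 21.3 after knockdown, above every control, and its line difference (edgeR adjusted p = 0.0177) lost its call in 3 of the 18 fits. Those fits left out LNCaP CTRL sh replicate 2 or 3 or LNCaP95 CTRL sh replicate 1.

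**Figure D2:**
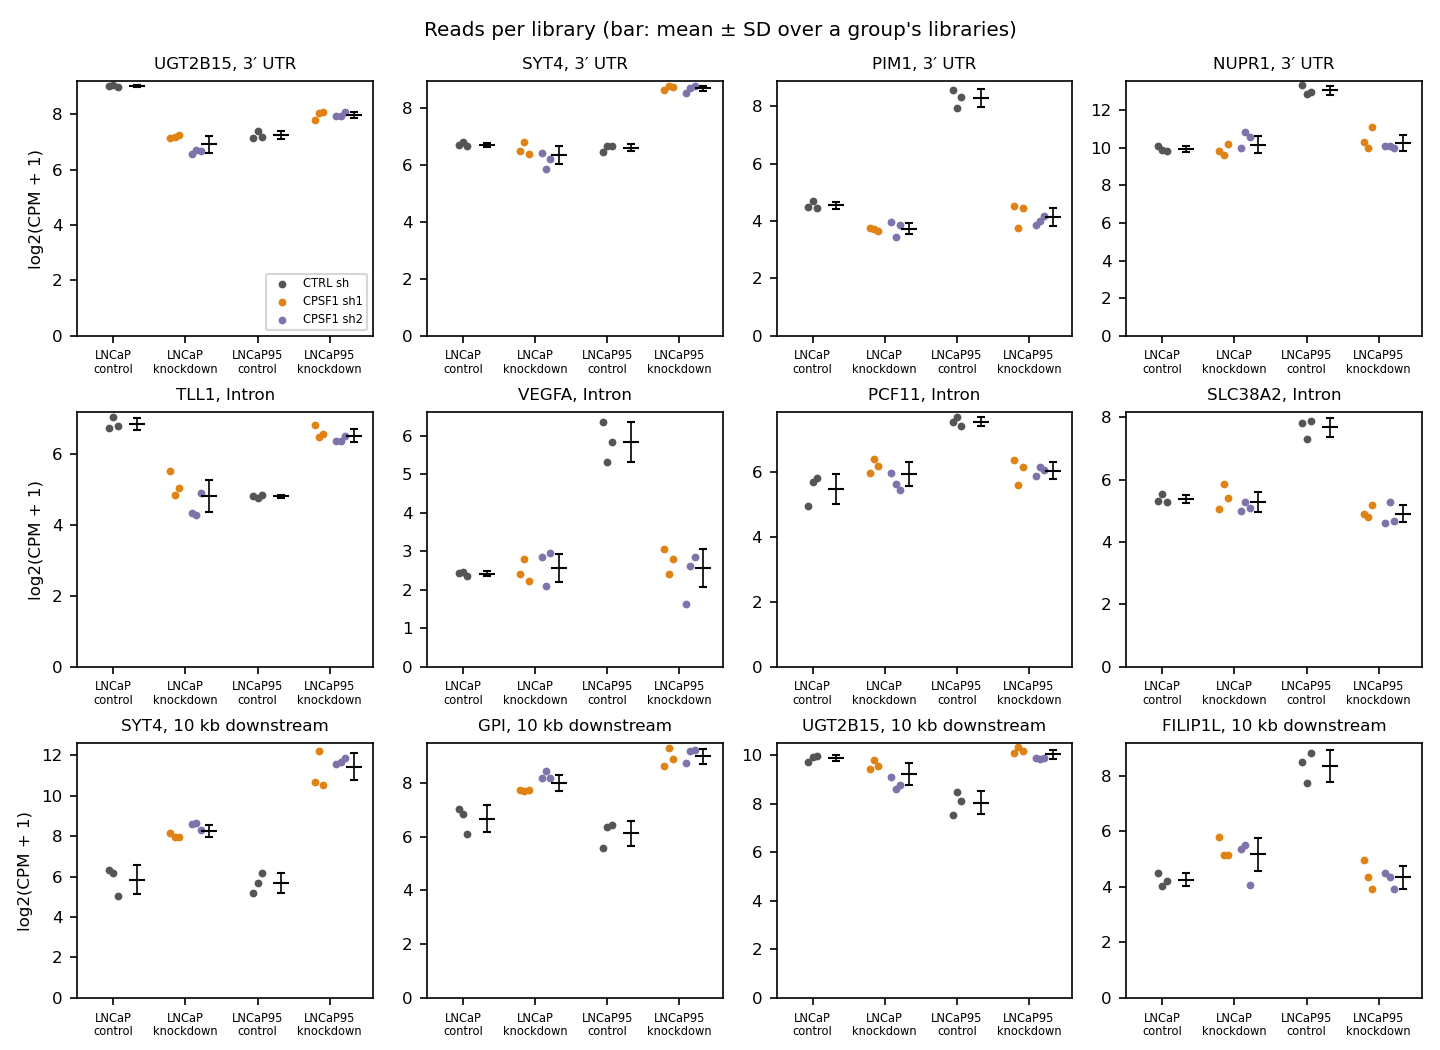
The y axis gives log2(CPM + 1) for selected genes in the table named above each panel, with 1 point per library, columns for the control and knockdown libraries of each line and colours for CTRL sh, CPSF1 sh1 and CPSF1 sh2. Bars show the mean ± SD of a column, and the 6 knockdown libraries of LNCaP and of LNCaP95 lie on opposite sides of their controls for UGT2B15 in the 3′ UTR table.

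Genes of the integrated stress response, sterol synthesis and androgen signalling were called mostly in 1 direction. A negative difference was found in 4.66% of all genes in the 3′ UTR table. In the integrated stress response, in which phosphorylation of eIF2α limits translation and induces ATF4 targets, 8 of 20 genes had a negative line difference and 0 a positive one, with a median difference of -0.59 against 0 for all genes. DDIT3, a transcription factor of this response, had 46.6, 51.4 and 48.6 CPM in LNCaP controls and 44.3, 51.06 and 61.9 after knockdown, against 595, 562 and 519 and then 136, 163.8 and 217 in LNCaP95. Its groups overlapped in LNCaP and were apart in LNCaP95, and the line difference was -1.78 (SE 0.212, edgeR adjusted p = 3.08e-06). ATF3, another of its transcription factors, was above all controls after knockdown in LNCaP and below them all in LNCaP95, with a line difference of -2.41 (SE 0.36, edgeR adjusted p = 7.76e-05). PPP1R15A, which directs dephosphorylation of eIF2α, differed by -2.61 (edgeR adjusted p = 0.00322) and lost its call with CPSF1 sh2 alone. TRIB3, SESN2, CEBPB and SLC3A2 were the others besides NUPR1, of which TRIB3 and SLC3A2 did not pass with CPSF1 sh1 alone and SLC3A2 not without LNCaP CTRL sh replicate 3.

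In sterol and fatty acid synthesis 11 of 23 genes had a negative line difference, beside 4.66% of all genes. A positive one was found for 1, ELOVL6, beside 4.83% of all genes, and the list median was -0.73. INSIG1, which holds the sterol sensor in the endoplasmic reticulum, had 110, 132 and 130 CPM in LNCaP controls and 109, 118.8 and 134 after knockdown, against 408, 342 and 447 and then 89.4, 104.2 and 218 in LNCaP95. The groups overlapped in LNCaP and were apart in LNCaP95, with a line difference of -1.47 (SE 0.31, edgeR adjusted p = 0.00315). STARD4, a carrier of cholesterol in the cytosol, differed by -1.95 (SE 0.426, edgeR adjusted p = 0.00398). FASN, which makes palmitate, differed by -0.92 (edgeR adjusted p = 0.00755).

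Of 18 androgen response genes tested, 9 had a negative line difference and 0 a positive one, beside 4.66% and 4.83% of all genes. The list median was -0.47. FKBP5, a co-chaperone of steroid receptors and an androgen target, had 61.5, 58.3 and 51.2 CPM in LNCaP controls and 91.9, 122.2 and 136 after knockdown, against 278, 273 and 288 and then 212, 261.1 and 272 in LNCaP95. Its line difference was -1.19 (SE 0.184, edgeR adjusted p = 0.000113). NDRG1, a target of androgen and of hypoxia, differed by -1.80 (edgeR adjusted p = 5.45e-05), and TRPM8, an ion channel, by -1.39 (edgeR adjusted p = 0.000109). HERC3, a ubiquitin ligase, lay above all controls in LNCaP and below all controls in LNCaP95, a line difference of -2.67 (SE 0.39, edgeR adjusted p = 6.57e-05).

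Glycolysis genes, the enzymes from glucose to lactate, were of interest to the study from these same cell lines, so their direction is not independent evidence. Of 17 tested in 3′ UTRs, 7 had a negative line difference and 0 a positive one, beside 4.66% and 4.83% of all genes. The median log2 change of the 17 was -0.46 in LNCaP and -0.92 in LNCaP95. GAPDH had 2882, 2226 and 1934 CPM in LNCaP controls and 1284, 1848 and 2389 after knockdown, against 4569, 3461 and 4540 and then 1048, 1496 and 1886 in LNCaP95. The groups overlapped only in LNCaP, and the line difference was -1.12 (SE 0.265, edgeR adjusted p = 0.00773). HK1, which phosphorylates glucose, was above its controls in LNCaP and below them in LNCaP95, a line difference of -0.84 (edgeR adjusted p = 0.00385). PGAM1, HK2 and ENO1, others of the 7, passed in 10, 15 and 15 of the 18 fits that left out 1 library. PGAM1 did not pass with no filter or with either shRNA alone, nor HK2 with CPSF1 sh1 alone. PGAM1 and ENO1 also did not pass with a replicate block. Of 18 HIF targets, 4 had a negative line difference and 1 a positive one, beside the same shares of all genes. SLC2A1, the glucose transporter GLUT1, differed by -1.30 (edgeR adjusted p = 0.000281), while PLOD2, a collagen lysyl hydroxylase, differed by 2.05 (SE 0.339, edgeR adjusted p = 0.000243).

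Of 19 p53 targets, 6 had a negative line difference and 0 a positive one, beside 4.66% and 4.83% of all genes. CDKN1A, the cell cycle inhibitor p21, had 56.4, 50.3 and 68.2 CPM in LNCaP controls and 192, 228.1 and 276 after knockdown, against 81.2, 93.2 and 125 and then 105, 137.1 and 149 in LNCaP95. The groups were apart in LNCaP and overlapped in LNCaP95, with a line difference of -1.61 (SE 0.223, edgeR adjusted p = 3.17e-05). GDF15, a secreted stress cytokine, differed by -1.36 (edgeR adjusted p = 0.000378). MDM2, BBC3 and FAS, others of the 6, passed in 7, 10 and 15 of the 18 fits that left out 1 library. MDM2, FAS and TNFRSF10B did not pass with CPSF1 sh2 alone, nor BBC3 with CPSF1 sh1 alone. MDM2 and BBC3 also did not pass with the replicate block. Among 25 replication and mitosis genes 2 had a positive and 4 a negative difference. MCM3 (1.09) and MCM4 (0.82), subunits of the replicative helicase, had the positive difference, and CDC20, CDK1, CCNA2 and AURKA, which act in mitosis, the negative one. CDK1 passed in 13 of the 18 fits that left out 1 library and not with the replicate block, CCNA2 did not pass without LNCaP CTRL sh replicate 1, and CDK1, CCNA2 and AURKA did not pass with CPSF1 sh1 alone. CDC20 passed in all 18 fits and with each shRNA alone, with a line difference of -1.45 (SE 0.227, edgeR adjusted p = 0.000127).

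Replication-dependent histones, whose usual mRNAs end without a poly(A) tail, had a negative line difference in 10 of 18 tested. Their median log2 change was 1.33 in LNCaP and -0.22 in LNCaP95. Over all genes in 3′ UTRs 4.66% had a negative and 4.83% a positive difference, which the counts here stand beside. Several histone genes are near-identical copies, so their separate counts are uncertain. Of the 84 cytoplasmic ribosomal proteins 0 passed the edgeR test in 3′ UTRs, with a median difference of 0.02. Of 354 zinc finger genes, 18 had a positive and 4 a negative difference, together 6.21% beside 9.49% of all genes. Among the polyadenylation factors, 2 of 19 had a positive difference, WDR33, which reads the AAUAAA signal, and PABPN1, which binds the tail. WDR33 (0.72, edgeR adjusted p = 0.0404) kept its call in 5 of the 18 fits, was 0.44 without LNCaP95 CTRL sh replicate 1, and did not pass with no filter or with either shRNA alone. PABPN1 (0.89, edgeR adjusted p = 0.0283) passed in 13 of the 18 and not with CPSF1 sh2 alone. Of 13 interferon response genes OAS3, which did not pass with CPSF1 sh1 alone, and UBE2L6 had a positive difference. Of 5 neuronal genes tested, SYT4 had a positive difference and MAP2 (-2.79) and TUBB3 a negative one, TUBB3 in 14 of the 18 fits and neither with CPSF1 sh1 alone nor with the replicate block. MAP2, a protein of neuronal microtubules, had 1.78, 1.78 and 2.31 CPM in LNCaP controls and 16.2, 17.43 and 23.5 after knockdown, against 54.2, 65.5 and 71.5 and then 75.2, 83.73 and 97.6 in LNCaP95.

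**Figure D3:**
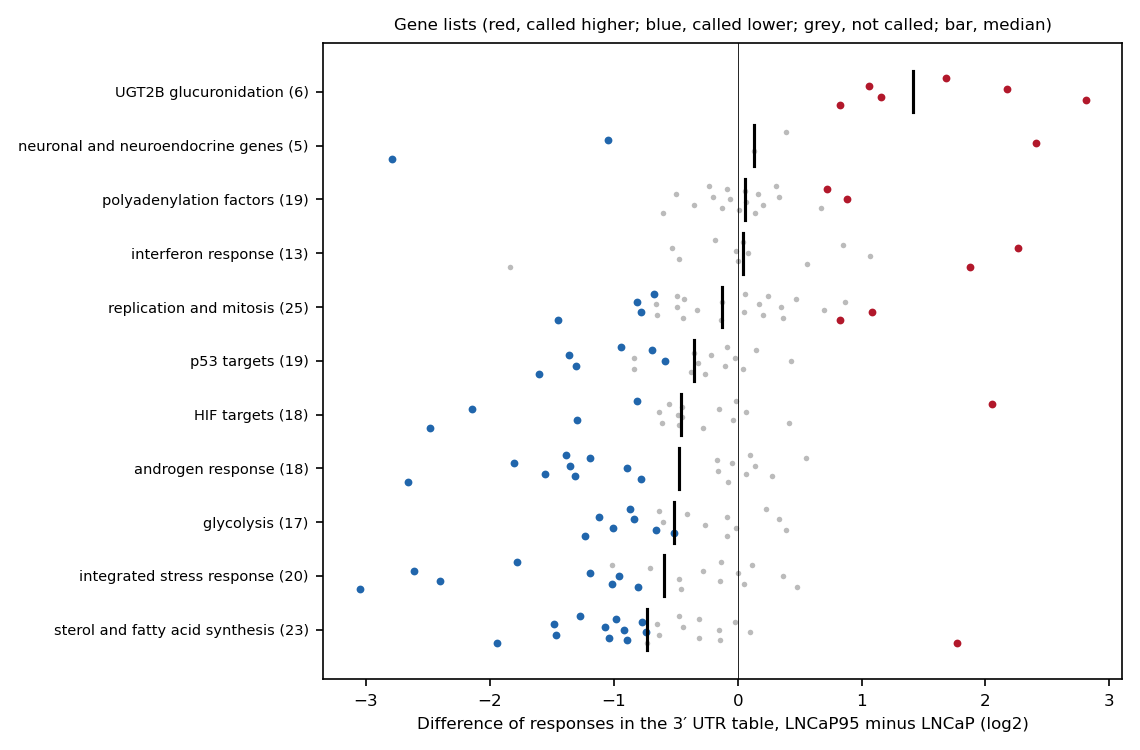
Line difference in the 3′ UTR table (log2, LNCaP95 minus LNCaP) on the x axis for each tested gene of 11 lists, 1 row per list with the number tested, with red (positive) and blue (negative) points for an edgeR adjusted p under 0.05, grey points for the rest and a bar at the list median. The UGT2B points all lie above 0, and the medians of the sterol, stress, glycolysis and androgen lists lie between -0.73 and -0.47.

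In introns several of the genes with the largest line differences separated from their controls in opposite directions in the 2 lines. TLL1, an extracellular protease that trims procollagen, had 104, 129 and 108 CPM in LNCaP controls and 18.5, 28.29 and 44.3 after knockdown. In LNCaP95 it had 27.2, 25.9 and 27.7 CPM in controls and 81, 88.44 and 112 after knockdown, a line difference of 3.73 (SE 0.26, edgeR adjusted p = 4.42e-13). The difference of TLL1 was not particular to introns. It was 4.54 in the 3′ UTR (edgeR adjusted p = 1.68e-05) and 4.31 in the 10 kb region (edgeR adjusted p = 8.45e-07). The ratio of its intron to 3′ UTR reads differed by -0.77 (edgeR adjusted p = 0.634), which did not pass. TLL2, its paralog, was above all controls in both lines, with a larger log2 change in LNCaP95 (4.99) than in LNCaP (2.15) and a line difference of 2.84 (SE 0.542, edgeR adjusted p = 0.000558). ADARB2, of the RNA-editing ADAR family, had 149, 207 and 193 CPM in LNCaP controls and 19.7, 25.37 and 35 after knockdown, against 19.5, 20.3 and 19 and then 17.5, 21.26 and 35.4 in LNCaP95. Its line difference was 3.04 (SE 0.282, edgeR adjusted p = 5.32e-10), and 3 lncRNAs are annotated within its introns on the same strand. KIAA1377, now CEP126, differed by 3.07 (edgeR adjusted p = 8.55e-06). It also differed by 2.075 in the 3′ UTR (edgeR adjusted p = 0.00879), and its ratio did not pass (1.01, edgeR adjusted p = 0.618).

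SLC23A1, a vitamin C transporter, had 7.76, 5.01 and 8.21 CPM in introns in LNCaP controls and 10.3, 14.95 and 18.1 after knockdown, against 56.5, 58.3 and 86.5 and then 4.14, 4.838 and 5.34 in LNCaP95. The groups were apart in both lines, and the line difference was -4.88 (SE 0.381, edgeR adjusted p = 5.27e-12). OIT3 showed the same pattern, with a line difference of -3.59 (edgeR adjusted p = 6.52e-09). C11orf83, annotated as UQCC3 in the newer set, had 11.6, 4.56 and 9.24 CPM in LNCaP controls and 307, 374.2 and 479 after knockdown, against 7.22, 6.09 and 10.4 and then 15.4, 30.15 and 49 in LNCaP95. Both lines were above their controls after knockdown, and the line difference was -3.58 (SE 0.462, edgeR adjusted p = 1.13e-06). Its counted intron region lies on the plus strand at chr11:62437745-62439587 (hg19) and holds 1568 bases.

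AASS, a lysine-degrading enzyme, had the most negative intron difference among the genes set by the naming rule, and it rested on 1 shRNA. In LNCaP it had 15, 9.57 and 17.4 CPM in controls, 407, 590 and 465 under CPSF1 sh1 and 9.92, 7.64 and 3.63 under CPSF1 sh2. In LNCaP95 controls had 29.3, 20.8 and 29.8 CPM and the knockdown libraries 10.1 to 19.9. The line difference was -4.95 with both shRNAs (SE 1.15, edgeR adjusted p = 0.00464), -5.72 with CPSF1 sh1 alone and -0.02 with CPSF1 sh2 alone, where it did not pass.

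Of the lists, the integrated stress response had 6 of 15 genes with a negative intron difference and 0 with a positive one, against 3.03% of all genes with a negative difference, and the androgen list 5 of 17 negative and 1, KLK3, positive beside 4.13% of all genes. Sterol synthesis had 4 of 21, p53 targets 4 of 15, HIF targets 4 of 16 and histones 4 of 11, all negative. VEGFA, the angiogenic growth factor, had 4.44, 4.56 and 4.11 CPM in introns in LNCaP controls and 3.27, 5.158 and 6.74 after knockdown, against 81.5, 39.1 and 55.8 and then 2.12, 5.537 and 7.28 in LNCaP95. Its line difference was -3.70 (SE 0.498, edgeR adjusted p = 2.5e-06). PCF11, a subunit of the cleavage factor that links polyadenylation to termination, was the 1 of 17 polyadenylation factors with a difference in introns. It had 29.9, 50.6 and 54.4 CPM in LNCaP controls and 42, 61.04 and 83.6 after knockdown, against 183, 204 and 167 and then 47.4, 67.42 and 80.6 in LNCaP95. The groups overlapped only in LNCaP, and the line difference was -1.94 (SE 0.262, edgeR adjusted p = 2.69e-06).

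Downstream of genes, GPI, the glycolytic enzyme glucose-6-phosphate isomerase, had more reads after knockdown in both lines and a larger log2 change in LNCaP95. Its counted 10 kb region lies on the plus strand at chr19:34893361-34903360 (hg19) and keeps 9172 bases once exons of that strand are removed. PDCD2L is annotated within it on the same strand. The qPCR primer pair for the extended transcript is shown because it lies inside the counted region. By exact match to the genome the primers start 1347 and 1425 bases into it, at chr19:34894708-34894727 and, on the minus strand, chr19:34894786-34894807.
GPI extension forward primer: ctggcaccaaatttcaacaa
GPI extension reverse primer: agatgaaatacctccgatttgc
In the 10 kb region LNCaP controls had 131, 114 and 67.4 CPM and knockdown libraries 208, 250 and 347. LNCaP95 controls had 47.3, 81.5 and 84.8 CPM and knockdown libraries 393, 527.7 and 621, so every knockdown library was above every control in both lines. The log2 change was 1.31 (SE 0.269) in LNCaP and 2.86 (SE 0.285) in LNCaP95, and the line difference 1.55 (SE 0.38, edgeR adjusted p = 0.00843). This call was lost without LNCaP CTRL sh replicate 1 or LNCaP95 CTRL sh replicate 1.

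In its 3′ UTR GPI went the other way, from 658, 720 and 660 CPM to 376, 394.1 and 408 in LNCaP and from 1169, 1210 and 1271 to 393, 417.1 and 525 in LNCaP95. The line difference there was -0.66 (SE 0.16, edgeR adjusted p = 0.00925), and it did not pass with CPSF1 sh1 alone. The ratio of a gene's downstream reads to its 3′ UTR reads was tested as a further term. For GPI the log2 change of this ratio was 2.103 (SE 0.324) in LNCaP and 4.32 (SE 0.333) in LNCaP95, a line difference of 2.22 (SE 0.466, edgeR adjusted p = 0.00906) that was lost only without LNCaP CTRL sh replicate 1. Over all genes 70 of 8988, or 0.779%, passed for this ratio, 0.49% with a positive and 0.289% with a negative difference, so that 62.9% of the calls were positive, against 89.4% when scaled by reads over all tables.

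Of the other genes named by the study, ALDOA, the glycolytic aldolase, differed by -0.87 in the 3′ UTR (SE 0.189, edgeR adjusted p = 0.00385) and by 0.22 in the 10 kb region (edgeR adjusted p = 0.871). PGK1, phosphoglycerate kinase, differed by -0.60 in the 3′ UTR (edgeR adjusted p = 0.0731) and by 1.41 in the 10 kb region (edgeR adjusted p = 0.0694), neither of which passed. PFKM, the muscle phosphofructokinase, differed by -0.09 and -0.07 and ALDH3A2, a fatty aldehyde dehydrogenase, by -0.34 and 0.74 in these 2 tables, with edgeR adjusted p from 0.251 to 0.957.

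**Figure D4:**
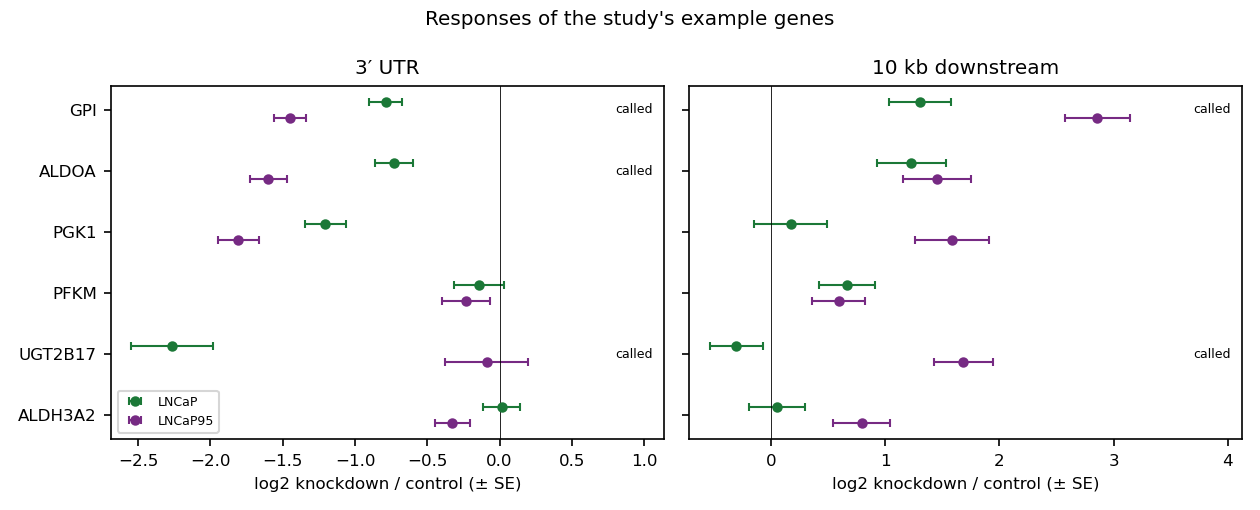
Log2 change on CPSF1 knockdown with its SE in LNCaP and in LNCaP95 for genes the study names, in the 3′ UTR table and the 10 kb table. For GPI the LNCaP95 value is below the LNCaP value in the 3′ UTR panel (-1.45 against -0.79) and above it in the 10 kb panel (2.86 against 1.31).

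Among genes with reads in every group, SYT4, a synaptotagmin of secretory vesicles that was chosen for its list, had one of the clearest differences downstream. Its 10 kb region had 80.2, 71.1 and 31.9 CPM in LNCaP controls and 249, 300 and 399 after knockdown, against 35.5, 49.6 and 72.7 and then 1494, 3161 and 4787 in LNCaP95. Both lines were above their controls, and the line difference was 3.48 (SE 0.439, edgeR adjusted p = 8.29e-09). In its 3′ UTR it had 102, 109 and 98.8 CPM and then 56.4, 82.46 and 111 in LNCaP, against 86.1, 101 and 101 and then 361, 418.7 and 430 in LNCaP95, which differed by 2.41 (SE 0.206, edgeR adjusted p = 1.52e-08). UGT2B15 differed by 2.58 (edgeR adjusted p = 4.43e-09) and UGT2B17 by 1.99 (edgeR adjusted p = 4.36e-05) in the 10 kb table. The ratio to the 3′ UTR did not pass for any of these 3 genes. It differed by 0.94 for SYT4 (edgeR adjusted p = 0.49), -0.19 for UGT2B15 (edgeR adjusted p = 0.872) and -0.26 for UGT2B17 (edgeR adjusted p = 0.839).

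The 4 genes with the most positive 10 kb differences under the naming rule had 0 reads in all LNCaP95 controls. The folds given for them are lower bounds within LNCaP95 against 3 reads per library, not bounds on the line difference. TYMS, thymidylate synthase, had 33 to 96 reads in LNCaP95 knockdown libraries, at least 11.1-fold higher, and 3, 3 and 1 reads in LNCaP controls beside 2 to 23 after knockdown (line difference, edgeR adjusted p = 0.0049). MAGEA3, a cancer-testis antigen with a near-identical paralog, had 43 to 70 reads in LNCaP95 knockdown libraries, at least 9.8-fold higher. In LNCaP it had 3, 1 and 1 reads in controls and 1 to 21 after knockdown. Its line difference (edgeR adjusted p = 0.0178) lost its call without LNCaP CTRL sh replicate 1 or LNCaP95 CTRL sh replicate 1 or 3. SESTD1 had 11 to 48 reads in LNCaP95 knockdown libraries, at least 4.61-fold higher. Its line difference (edgeR adjusted p = 0.00352) lost its call without LNCaP CTRL sh replicate 2. FZD6, a Wnt receptor, had 8 to 41 reads in those libraries, at least 3.95-fold higher. Its line difference (edgeR adjusted p = 0.0136) lost its call with CPSF1 sh2 alone and without LNCaP CTRL sh replicate 1. The line difference of TYMS passed in all 18 fits.

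On the negative side FILIP1L, a filamin-interacting protein, had 21.9, 15.4 and 17.7 CPM in its 10 kb region in LNCaP controls and 15.9, 37.39 and 54.9 after knockdown, against 366, 212 and 451 and then 14.1, 19.35 and 30.7 in LNCaP95. The line difference was -5.09 (SE 0.541, edgeR adjusted p = 1.28e-11), and a newer model of FILIP1L itself reaches into this region. SMIM14, a small membrane protein, had 0, 2 and 1 reads in LNCaP controls and 0 to 14 after knockdown, against 644, 687 and 745 CPM and then 43.7, 57.9 and 99.7 in LNCaP95 (line difference -5.67, SE 0.727, edgeR adjusted p = 8.29e-09). A lncRNA is annotated in that region on the same strand. METAP1, a methionine aminopeptidase, had 1, 0 and 0 reads in LNCaP controls and 8 to 19 after knockdown, against 50.2, 63.7 and 151 CPM and then 50.5, 55.55 and 86.3 in LNCaP95 (edgeR adjusted p = 0.000252). ZMYND8, a chromatin reader, had 0 reads in LNCaP controls and 2 to 18 after knockdown, at least 2.1-fold higher, and its call (edgeR adjusted p = 0.00326) was lost without LNCaP95 CTRL sh replicate 3.

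Few members of most lists passed in the 10 kb table. Glycolysis had 1 of 17 (GPI), replication and mitosis 2 of 22 (TYMS and BUB1B) and UGT2B 2 of 7, all positive beside 1.53% of all genes. BUB1B passed in 10 of the 18 fits and neither with CPSF1 sh2 alone nor with the GC offset. Histones had 8 of 48 and the androgen list 3 of 17, all negative beside 1.12% of all genes. The stress, sterol, p53, interferon and polyadenylation factor lists had 0 by edgeR. In a test on simulated counts only 16% of genes given a 10 kb line difference of 2 on the log2 scale were called, so a gene that did not pass cannot be said to respond alike.

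The downstream regions of the 198 genes with a positive difference had a median GC content of 42.26% and 1.1 AATAAA per kb, against 46.27% and 0.8 for the 145 with a negative difference and 45.36% and 0.8 for all 12921. Another gene was annotated on the same strand within the region for 27.3% of the positive, 55.2% of the negative and 39.7% of all genes. Their control levels differed too. The median of genes with a positive difference was 42.0 CPM in LNCaP controls and 12.0 in LNCaP95 controls, and that of genes with a negative difference 58.2 and 177. The part of GC content, neighbouring genes and control level in the calls was not tested here beyond an offset for GC content, described with the alternatives.

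For the ratio to the 3′ UTR, the negative 10 kb differences among named genes were SMIM14 (-5.29, edgeR adjusted p = 0.000466), CCDC66 (-5.09, edgeR adjusted p = 0.000555) and METAP1 (-4.92, edgeR adjusted p = 0.00906). SMIM14 did not pass with CPSF1 sh2 alone. METAP1 did not pass with either shRNA alone or without LNCaP CTRL sh replicate 2 or 3, and without LNCaP CTRL sh replicate 1, the only LNCaP control with a read there, its fitted value was -9.56, which is no bound. CCDC66, a microtubule-binding protein, had 65.6, 6.18 and 7.1 CPM downstream in LNCaP controls and 0 to 36.1 after knockdown, against 73.9, 88.5 and 173 and then 0 to 10.6 in LNCaP95. The most positive ones under that rule were SESTD1, TYMS and MAGEA3, again with 0 reads in LNCaP95 controls, which passed in 7, 8 and 10 of the 18 fits that left out 1 library. Of these, SESTD1 and TYMS did not pass with either shRNA alone, nor MAGEA3 with CPSF1 sh2 alone. Of the stress genes, NUPR1 (3.37, edgeR adjusted p = 8.27e-05) and DDIT3 (2.70, edgeR adjusted p = 0.0307) had a positive ratio difference. DDIT3 did not pass in 4 of the 18 fits, those without LNCaP CTRL sh replicate 1 or 3 or LNCaP95 CTRL sh replicate 1 or 2, nor with either shRNA alone. The 10 kb difference itself did not pass for DDIT3 (0.89, edgeR adjusted p = 0.483) or NUPR1 (0.38, edgeR adjusted p = 0.63).

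For the ratio of intron to 3′ UTR reads 75 of 8424 genes passed, or 0.89%, with 17 positive (0.202%) and 58 negative (0.689%), or 22.7% of calls positive against 50% when scaled by reads over all tables. C11orf83 differed by -4.02 (edgeR adjusted p = 0.000104). SLC38A2, an amino acid transporter, had 38.8, 45.6 and 38 CPM in introns in LNCaP controls and 31, 35.67 and 56.9 after knockdown, against 225, 158 and 234 and then 23.3, 28.18 and 37.5 in LNCaP95. Its 3′ UTR difference was -0.17 (edgeR adjusted p = 0.622), and its ratio differed by -2.52 (SE 0.322, edgeR adjusted p = 4.72e-05). VEGFA (-3.11, edgeR adjusted p = 0.000799) and PCF11 (-2.13, edgeR adjusted p = 0.0037) also had a negative ratio difference, but neither passed with CPSF1 sh2 alone, nor PCF11 with sizes summed over all tables. C1orf63 differed by 2.67 (SE 0.445, edgeR adjusted p = 0.00132), where its introns did not pass (line difference -0.51, edgeR adjusted p = 0.361). MAP3K13, a kinase of the JNK pathway, differed by 1.75 (SE 0.352, edgeR adjusted p = 0.00914) and did not pass with CPSF1 sh1 alone. TIMM10B (1.83, edgeR adjusted p = 0.0457) held in 5 of the 18 fits and its introns overlap DNHD1 on the same strand, and TIMM8A (-2.92, edgeR adjusted p = 0.0161) held in 14. Neither passed with either shRNA alone or with sizes summed over all tables, nor TIMM10B with the replicate block.

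The distance between the lines can be read from the same libraries as the absolute log2 ratio of LNCaP95 to LNCaP per gene, computed as log2(CPM + 1). Its median over the genes tested in the 3′ UTR table was 0.44 in controls, 0.40 under CPSF1 sh1 and 0.37 under CPSF1 sh2. In introns the values were 0.41, 0.38 and 0.36 and in the 10 kb regions 0.71, 0.62 and 0.58. For the 496 genes with a negative difference in 3′ UTRs the median level was 38.3 CPM in LNCaP controls and 75.4 in LNCaP95 controls, and 44.3 and 44.7 after knockdown. Of these, 364 (73.4%) had a smaller gap between the lines after knockdown than in controls, beside 326 (63.4%) of the 514 with a positive difference and 6244 (58.7%) of all 10646. This gap and the line difference share the control libraries, so it is no separate evidence. The counts of smaller gaps also set means of 6 knockdown libraries per line against means of 3 controls. A mean of fewer libraries is noisier, which by itself can widen an absolute gap.

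Shares of reads were compared to ask whether whole regions gained or lost reads differently, each taken of a library's reads over the 4 regions. The 3′ UTR share went from 53.9% ± 2.89 (SD, n = 3) to 55.2% ± 2.16 (n = 6) in LNCaP and from 58.2% ± 1.9 to 54.3% ± 3.57 in LNCaP95. The line difference was -5.26 percentage points (two-sided exact permutation p = 0.0802 over 7056 arrangements, 0.321 after Benjamini-Hochberg adjustment over 4 regions). The 10 kb share changed by 1.39 points in LNCaP and 2.39 in LNCaP95, a line difference of 0.995 points (exact permutation p = 0.386). Introns differed by 2.56 points (exact permutation p = 0.238) and CDS by 1.7 (exact permutation p = 0.307), and no region passed. The arrangements exchange control and knockdown labels within a line, so they assume no knockdown effect in either line. The 10 kb share was 4.8% to 4.98% in LNCaP controls and 5.44% to 7.4% after knockdown. In LNCaP95 it was 3.48% to 3.75% and then 5.1% to 7.1%. A change shared by both lines widens the spread of the arrangements, so this p cannot decide whether the lines differ.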

How the data were processed

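PAC-seq reads of 18 libraries (3 CTRL sh, 3 CPSF1 sh1 and 3 CPSF1 sh2 in each of LNCaP and LNCaP95) were analysed. The deposited values are unnormalized read counts for each gene and library, in 4 tables made by the authors. Per the labels and the study's methods, reads were processed with DPAC, mapped to hg19 with HISAT2 (2.1.0 in the submitters' processing notes), and counted by strand at their 3′-most base with featureCounts (Subread 2.0.3 in those notes). Regions came from protein-coding genes of an Ensembl GRCh37 annotation, with 300 bases added to each 3′ UTR and same-strand exons removed from the 10 kb regions. Priming inside A-rich sequence could add to these counts. All columns were matched to samples by title, with 0 left over, and 0 pairs of duplicate libraries were found.

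The line-by-knockdown term was tested in edgeR 4.0.16 (R 4.3.3) by its quasi-likelihood F-test, with TMM factors per table, on genes with a mean above 2 CPM over the 9 libraries of each line, and adjusted by the Benjamini-Hochberg method at 0.05 over all genes of a table. Ratios of 10 kb or intron to 3′ UTR reads were tested as a further interaction with region and with a term for each library. The F-test, the threshold and the pooling of shRNAs are those of the study's methods for RNA-seq, which tested knockdown within each line and kept genes above 2 CPM across all conditions. The test between lines and the filter on means were chosen here. CDS counts entered only the shares of reads, which were compared by an exact permutation test within lines. Genes named in the text were those the study names, called genes of 14 lists, and per table the 4 highest and 4 lowest (per ratio the 3 and 3) line differences among genes that passed, had the same sign with each shRNA and averaged 10 CPM or more per line. Genes of the lists named under a ratio and SLC38A2 in introns are given beside these. Some genes set by this rule are not reported here. The genes and lists were chosen with earlier results of these data known. Alternatives were DESeq2 1.42.0 (size factors and Wald test), other filters, all 27 libraries, each shRNA alone, a replicate block, sizes summed over the 4 tables, a GC offset and leaving out each library.

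On simulated counts with line differences of 1 and 2 on the log2 scale, 56.6% and 95.9% of changed genes were called in the 3′ UTR comparison, 27.4% and 76.8% in introns, 5.1% and 16% in the 10 kb comparison, 0% and 9.28% for the 10 kb ratio and 5.1% and 70.5% for the intron ratio. Unchanged genes made up 6.83%, 2.94%, 4.76%, 0% and 7.69% of these calls, in the same order. Floors of 3 reads reflect counting error alone, because PCR duplicates are not distinguishable here. Positions are hg19, and neighbouring genes were read from a newer Gencode annotation of that build, in which 88.9% of the symbols were found. Primer sequences were read from the study's oligonucleotide table and placed on the genome by exact match.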

Additional observations from a re-analysis of the deposited data

Results flagged for a closer look

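The line difference tests an interaction, so each call is itself a difference between the 2 lines, and the values are gathered here. A difference was found for 1010 genes in 3′ UTRs, 836 in introns, 343 in the 10 kb regions, 70 for the ratio of downstream to 3′ UTR reads and 75 for the ratio of intron to 3′ UTR reads.

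In the 3′ UTR table the differences (log2, LNCaP95 minus LNCaP) were 3.34 for FAM65B, 2.81 for UGT2B15, 2.68 for NDUFA4L2, 2.65 for SCD5 and 2.17 for UGT2B17, and -6.32 for PRAMEF12, -3.36 for PIM1, -3.12 for C1orf63, -3.05 for NUPR1, -0.87 for ALDOA and -0.66 for GPI. In introns they were 3.73 for TLL1, 3.07 for KIAA1377, 3.04 for ADARB2, 2.84 for TLL2 and 1.95 for UGT2B17, and -4.95 for AASS, -4.88 for SLC23A1, -3.59 for OIT3 and -3.58 for C11orf83. In the 10 kb regions they were 7.15 for SESTD1, 6.82 for TYMS, 6.56 for FZD6, 6.28 for MAGEA3, 1.99 for UGT2B17 and 1.55 for GPI, and -7.45 for ZMYND8, -5.67 for SMIM14, -5.09 for FILIP1L and -4.95 for METAP1. Where a control group had 0 reads (PRAMEF12, SESTD1, TYMS, FZD6, MAGEA3 and ZMYND8) the fitted value depends on the prior count and is no bound.

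For the downstream ratio the differences were 9.41 for SESTD1, 9.19 for TYMS, 9.01 for MAGEA3, all 3 with 0 downstream reads in LNCaP95 controls, 2.22 for GPI, -5.29 for SMIM14, -5.09 for CCDC66 and -4.92 for METAP1. For the ratio of intron to 3′ UTR reads they were 2.67 for C1orf63, 1.83 for TIMM10B, 1.75 for MAP3K13, -4.02 for C11orf83, -2.92 for TIMM8A and -2.52 for SLC38A2.

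In 5 of 60 groups of 6 knockdown libraries examined, 1 library stood apart from the others by Dixon's criterion, which chance does in about 1 group of 20. In LNCaP95 these were NUPR1 at 2171 CPM in the 3′ UTR, ADARB2 at 35.4 and KIAA1377 at 57.2 CPM in introns, and SMIM14 at 99.7 CPM in the 10 kb region. In LNCaP it was FAM65B at 6.69 CPM in the 3′ UTR.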

How the results depend on the processing

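No call on a named gene reversed its direction under the alternatives tried. Of the values for named genes, 4784 kept their side of the threshold, 418 lost it and 18 gained it. Of 125 calls on list genes in the tables and ratios, 77 held in all 18 fits that left out 1 library. In fits that left out 1 library, positive and negative counts ranged from 303 to 584 and from 307 to 599 in 3′ UTRs (lowest without LNCaP95 CTRL sh replicate 1 and LNCaP CTRL sh replicate 3), from 304 to 530 (lowest without LNCaP CTRL sh replicate 2) and from 240 to 373 in introns, and from 127 to 209 (lowest without LNCaP CTRL sh replicate 2) and from 100 to 161 in the 10 kb regions. For the 10 kb ratio they ranged from 19 to 68 and from 14 to 41, and for the intron ratio from 5 to 22 and from 20 to 66, all lowest without LNCaP CTRL sh replicate 3. Differences in share ranged from -6.53 to -3.69 points for 3′ UTRs, 1.28 to 3.49 for introns, 0.777 to 1.22 for 10 kb regions and 0.893 to 2.37 for CDS, with adjusted exact permutation p from 0.145 to 0.537. The unadjusted exact p for 3′ UTRs was 0.0361 without LNCaP CTRL sh replicate 2, 0.0472 without LNCaP95 CPSF1 sh2 replicate 3, 0.0497 without LNCaP CPSF1 sh2 replicate 3 and 0.03 with CPSF1 sh1 alone (adjusted 0.12).

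With CPSF1 sh1 alone the counts were 81 negative in the 10 kb regions, 20 positive and 13 negative for the 10 kb ratio and 5 and 19 for the intron ratio. With CPSF1 sh2 alone they were 298 positive in 3′ UTRs, 297 positive in introns, 111 positive and 93 negative in the 10 kb regions, 19 and 7 for the 10 kb ratio and 4 and 11 for the intron ratio. With library sizes summed over the 4 tables, which moved the median difference from 0.03 to 0.18 in introns and from 0.09 to 0.46 in the 10 kb regions, 159 were negative in introns, 402 positive and 70 negative in the 10 kb regions, 126 and 15 for the 10 kb ratio and 7 and 7 for the intron ratio. The GC offset gave 133 positive and 199 negative 10 kb differences. DESeq2's Wald test gave 87 and 56 for the 10 kb ratio and 31 positive for the intron ratio. No filter gave 71 and 43 for the 10 kb ratio and 33 and 91 for the intron ratio, a filter in every library 85 and 50 for the 10 kb ratio, and all 27 libraries 84 positive for the 10 kb ratio and 30 positive for the intron ratio. Fewer libraries were fitted for each shRNA, and the cause of the other shifts was not tested.

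To look for pairing, each library's deviations from its group mean in 3′ UTRs were correlated with those of libraries in other groups. For same-numbered libraries r ranged from -0.264 to 0.191 within a line and from -0.319 to 0.362 across lines. Of these, 6 of 18 and 10 of 27 were over 0.1. For differently numbered libraries r ranged from -0.438 to 0.398 (12 of 36 over 0.1) and from -0.446 to 0.371 (16 of 54). The ranges for same-numbered libraries lay within these, so this measure showed no pairing by number. With a replicate block the counts were 439 positive and 392 negative in 3′ UTRs, 463 and 316 in introns, 166 and 125 in the 10 kb regions, 37 and 21 for the 10 kb ratio and 13 and 49 for the intron ratio. Of simulated differences of 2, 16% were called in the 10 kb comparison and 9.28% for the 10 kb ratio, so a gene that did not pass there cannot be said to respond alike.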
